A study of Mus musculus with 2 samples.

Results

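Accessibility of the genes that hold hematopoietic stem cells (HSCs) in or release them from quiescence was measured in young and aged cells: the Cdk inhibitor genes Cdkn1a, Cdkn1b, Cdkn1c, Cdkn2a, Cdkn2b, Cdkn2c and Cdkn2d, the kinase gene Cdk6 and the cyclin genes Ccnd1 and Ccnd2. These 10 genes, of 21911 annotated protein-coding genes, were chosen by name. Each was counted at its promoter, over its body and in 500-bp bins of the 50 kb on either side, and the 2 promoters of Cdkn2a were counted apart, which gave 11 promoters. Single-cell ATAC-seq, in which a transposase cuts the open stretches of chromatin in each nucleus, had been done on 1 library of young HSCs from C57BL/6 mice 10 weeks old and 1 library of aged HSCs from C57BL/6 mice 20 months old. The labels name no altered allele or treatment for either, and both were bone marrow cells sorted by the same markers: lineage-negative cells positive for c-kit, Sca-1 and CD150 and negative for CD34, CD48, Flt3 and IL-7 as labelled. The number of mice behind either library and any pooling of them are not given in the sources used here. With 1 library per age no test between ages was possible, so each difference below has no replicate check, no p-value is given, and intervals cover counting error only.

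As background, the proteins of the Cip/Kip family, p21 (Cdkn1a), p27 (Cdkn1b) and p57 (Cdkn1c), bind cyclin-Cdk complexes broadly, while those of the INK4 family, p16 (Cdkn2a), p15 (Cdkn2b), p18 (Cdkn2c) and p19 (Cdkn2d), bind the G1 kinases Cdk4 and Cdk6. D-type cyclins activate those kinases, which phosphorylate the retinoblastoma proteins and so release E2F factors for entry into the cell cycle. Cdkn2a is unusual in that an upstream start makes the transcript of Arf, a protein that protects p53 from Mdm2, and a start further downstream makes that of p16 from shared exons in another reading frame. In HSCs p57 and p27 are known for keeping cells out of cycle, and low Cdk6 is known for slow exit from quiescence.

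The kept cells were barcodes called as cells that held 3000 to 20000 in-peak fragments by the authors' count, 4887 young and 3404 aged, with medians of 9890 and 11020 fragments per cell. Values are fragments per 1000000 in-peak fragments (FPM), over 34644163 in-peak fragments of young HSCs and 26149836 of aged HSCs. The libraries differed in quality, with 59.8% and 55% of fragments shorter than the DNA of a nucleosome and a median enrichment at transcription start sites (TSSs) of 5.78 and 5.3, and 28 cell barcodes occurred in both. Summed over the promoters of 7 HSC markers, the level was 149 FPM in young HSCs and 0.986 times that (0.945 to 1.03) in aged HSCs, while 4 T cell markers together stood at 2.71 and 1.49 FPM, 5 B cell markers at 48.3 and 44.2, 5 granulocyte markers at 18 and 18.3, 4 erythroid markers at 46.8 and 44.1 and 4 megakaryocyte markers at 112 and 101 FPM. No list had a marker at 0, the lowest single marker being one of the B cell list at 0.229 FPM. The part of these differences in any result below was not tested.

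The 11 promoters covered a wide range of levels, and their order was nearly the same at both ages. Promoter windows are all the same length (the annotated 5′ end of the gene with 1 kb on either side, GENCODE M21 on mm10), so the levels of these windows can be compared. The order is not one of the most open start of each gene. Further starts downstream were more open at Cdkn1a, with 19.5 FPM in young and 23.3 FPM in aged HSCs, and at Cdk6, with 42.3 and 42 FPM. Cdkn2d was the most open, at 83.3 FPM in young and 80.5 FPM in aged HSCs, ahead of Ccnd2 at 76.9 and 69.6 FPM and Cdkn1b at 50.3 and 46.2 FPM. The annotated 5′ end of Cdkn1a was the least open, at 1.3 and 1.45 FPM, followed by the Ink4a promoter of Cdkn2a at 4.19 and 5.28 FPM. In young HSCs the intervals of neighbours in this order overlapped for Cdk6 with Cdkn2b and for Cdkn2b with Ccnd1. In aged HSCs they overlapped for Cdkn1c with Cdkn2b and for Cdkn2b with Cdk6, Cdkn2b having passed Cdk6 in rank.

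**Figure D1:**
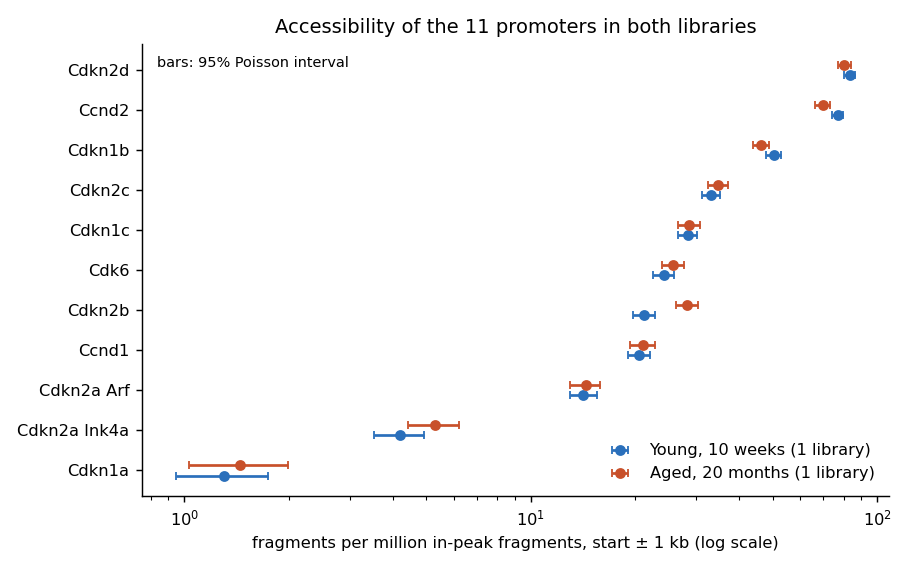
Promoter level in FPM within 1 kb of each of the 11 starts, on a log scale, in the young (blue) and the aged (red) library, with 95% Poisson intervals that cover counting error only. The intervals of the libraries are apart at Cdkn2b, with 21.3 FPM in young and 28.3 FPM in aged HSCs, and at Ccnd2, with 76.9 and 69.6 FPM.

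Between the ages, 2 of the 11 promoters were at least 25% higher in aged HSCs, those of Cdkn2b and of Ink4a, and 0 were at least 20% lower (the same fold in the other direction). Of the 11, 10 held the minimum of 100 fragments over both libraries, and the one below it was the 5′ end of Cdkn1a. Over all 15003 protein-coding promoters with that minimum, 8.35% were at least 25% higher and 2.6% at least 20% lower, and a count of 2 among 10 is too small to be read as more than that share. The median log2 ratio (aged over young) of the 11 promoters was 0.04, and the ratios ran from -0.14 to 0.41. The 11 include the 5′ end of Cdkn1a, below the minimum, while the median of -0.05 over all promoters is over the 15003 with it. Of the 10 with the minimum, 7 had a log2 ratio above 0, beside 34.7% of the 15003.

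Cdkn2b, the INK4 gene for p15, had the largest ratio among the 11 promoters. It stood at 21.3 FPM in young HSCs (737 fragments, interval 19.8 to 22.9) and at 28.3 FPM in aged HSCs (739 fragments, interval 26.3 to 30.4). The intervals did not overlap, and the ratio of 1.33 (95% counting interval 1.2 to 1.47) lay at percentile 94.1 of all promoters. The Ink4a promoter, the start for p16, was thinly covered, by 145 young and 138 aged fragments. Its levels of 4.19 FPM (3.53 to 4.92) and 5.28 FPM (4.43 to 6.23) overlapped, and its log2 ratio of 0.33 had an interval from -0.01 to 0.68. The Arf promoter, between the other two on the chromosome, was at the same level at both ages within counting error, at 14.2 FPM (13 to 15.5) and 14.4 FPM (13 to 15.9). Its log2 ratio was 0.02, from -0.18 to 0.21.

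The Ink4a value passed 25% by little. Its log2 ratio was 0.27 with 2 kb on either side of the start, 0.28 over fragments shorter than the DNA of a nucleosome, 0.30 with the fragment density of the surrounding 2 to 10 kb subtracted and 0.30 scaled to all unique fragments, and under these 4 alternatives the promoter was no longer 25% higher. The log2 ratio of Cdkn2b stayed between 0.38 and 0.52 over all 15 alternatives and at least 25% higher in each of them. Some of the 15, such as no minimum of fragments and counting any fragment that overlapped the window, left the ratio unchanged.

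The ratio intervals of Cdkn2b and Arf were apart, and that of Ink4a overlapped both. Any link of sequence to ratio was not tested. The sequences of the 3 starts of this locus are shown as a description. They are from RefSeq (GRCm38.p6, all on the minus strand of chromosome 4), span 250 bases before to 50 after each RefSeq start, and run 5′ to 3′ in the direction of transcription. Cdkn2b lies at chr4:89310983-89311282, Ink4a at chr4:89282143-89282442 and Arf at chr4:89294570-89294869. Capitals mark matches to GGGCGG (the GC box bound by SP and KLF factors), CCAAT and the E2F forms TTTGGCGC and TTTCCCGC on either strand.
Cdkn2b: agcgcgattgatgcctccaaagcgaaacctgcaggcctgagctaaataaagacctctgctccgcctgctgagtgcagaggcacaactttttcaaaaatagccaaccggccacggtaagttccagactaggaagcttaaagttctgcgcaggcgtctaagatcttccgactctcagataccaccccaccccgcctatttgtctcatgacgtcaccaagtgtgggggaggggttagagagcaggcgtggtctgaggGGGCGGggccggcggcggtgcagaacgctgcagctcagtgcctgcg
Ink4a: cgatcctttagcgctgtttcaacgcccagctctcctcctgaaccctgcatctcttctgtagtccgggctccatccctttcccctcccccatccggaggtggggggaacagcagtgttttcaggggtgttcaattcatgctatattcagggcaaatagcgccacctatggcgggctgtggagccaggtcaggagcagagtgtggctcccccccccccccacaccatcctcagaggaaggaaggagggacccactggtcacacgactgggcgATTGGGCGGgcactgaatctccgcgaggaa
Arf: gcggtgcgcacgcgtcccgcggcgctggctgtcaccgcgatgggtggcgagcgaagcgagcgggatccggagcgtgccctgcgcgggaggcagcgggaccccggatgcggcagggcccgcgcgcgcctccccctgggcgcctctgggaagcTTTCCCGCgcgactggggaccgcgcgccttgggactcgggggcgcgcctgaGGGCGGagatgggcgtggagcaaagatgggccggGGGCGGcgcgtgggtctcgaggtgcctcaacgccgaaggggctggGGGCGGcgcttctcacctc
Cdkn2b held 1 GC box, 4 bases after its start. Ink4a held 1 GC box that overlapped a CCAAT match by 2 bases on the other strand. Arf held 3 GC boxes and 1 E2F match (TTTCCCGC) that began 99 bases before its start. The GC content was 57.7% at Cdkn2b, 60.3% at Ink4a and 77% at Arf, and the ratio of observed to expected CpG was 0.722, 0.442 and 1.04. Over all 32851 promoter sequences of the table, 35.7% held a GC box, 37.4% a CCAAT match and 1.56% an E2F match, the median GC content was 52.7% and the median CpG ratio 0.384. Of the 10 genes, 7 were matched in that table, with 10 entries, of which 7 held a GC box, 4 CCAAT, 1 E2F, 1 TATAAA and 2 CACGTG, the last pair beside 13.6% and 7.15% of all promoter sequences. These matches are letters in the sequence and do not show binding.

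Over the whole Cdkn2a-Cdkn2b locus the ratio was above 1 in all 9 segments it was divided into, but by unlike amounts and often within counting error. The Arf promoter stayed above 1 in 10 of 15 alternatives, with a log2 ratio of -0.02 scaled to all unique fragments. Levels are scaled to in-peak fragments, which were 69.2% of young and 67.6% of aged fragments. The part of that difference in the ratios of segments outside peaks was not tested. No other locus was divided in this way, so there is no share to set beside the 9 segments. The largest ratio belonged to the 10.5 kb between the Ink4a and Arf promoter windows, where 7.65 FPM in young HSCs (265 fragments) stood against 11.2 FPM in aged HSCs (293 fragments). That is a ratio of 1.46 (1.24 to 1.74), from 0.731 to 1.07 FPM per kb. The 6.72 kb from the Ink4a promoter to the 3′ end of Cdkn2a, which holds the shared exons, went from 9.58 to 11.7 FPM, a ratio of 1.22 (1.04 to 1.43). The intervals of the ratio included 1 at the Ink4a promoter (0.991 to 1.6) and at the Arf promoter (0.881 to 1.16). They also included 1 in the 10.6 kb between the Arf promoter and the end of Cdkn2b, at 1.17 (0.996 to 1.38). The same held in the part of the Cdkn2b body beyond its promoter, at 1.18 (0.914 to 1.53). It held too in both outer flanks, at 1.09 (0.969 to 1.23) upstream of Cdkn2b and at 1.09 downstream of Cdkn2a (log2 0.13, from -0.08 to 0.33). The segments were set by the annotated starts and ends after the values of the genes were known, so they are a description.

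**Figure D2:**
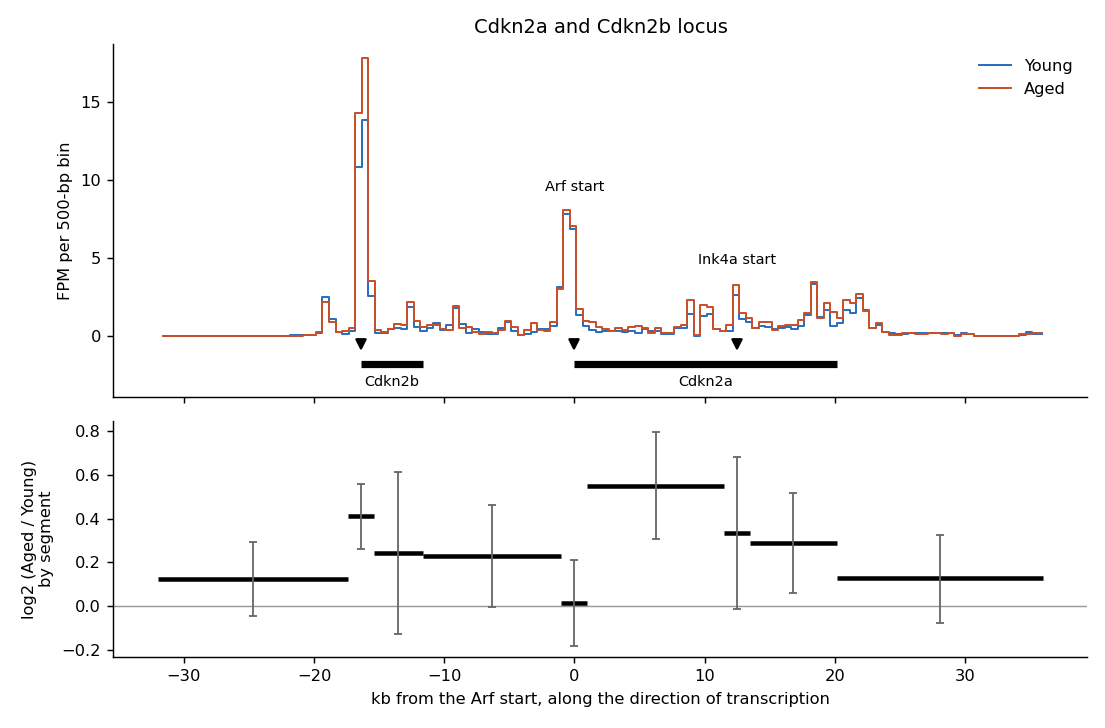
Upper panel, FPM in 500-bp bins along the Cdkn2a and Cdkn2b locus in young (blue) and aged (red) HSCs, by distance in kb from the Arf start, with triangles at the 3 starts and black bars for the genes. Lower panel, the log2 ratio of aged over young in each of 9 segments with its 95% counting interval, the outer segments drawn only as far as the axis goes. The highest bins are at Cdkn2b, the Arf promoter is level at 0.02, and the stretch between Arf and Ink4a stands at 0.55.

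The share of cut sites close to the start was counted at these starts at both ages. At Cdkn2b, 58.9% of the cut sites within 1 kb of the start lay within 250 bp of it in young and 58.4% in aged HSCs, while at Arf the shares were 37% and 35.1%. At Ink4a they were 56.2% of 276 cut sites and 50.2% of 269.

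**Figure D3:**
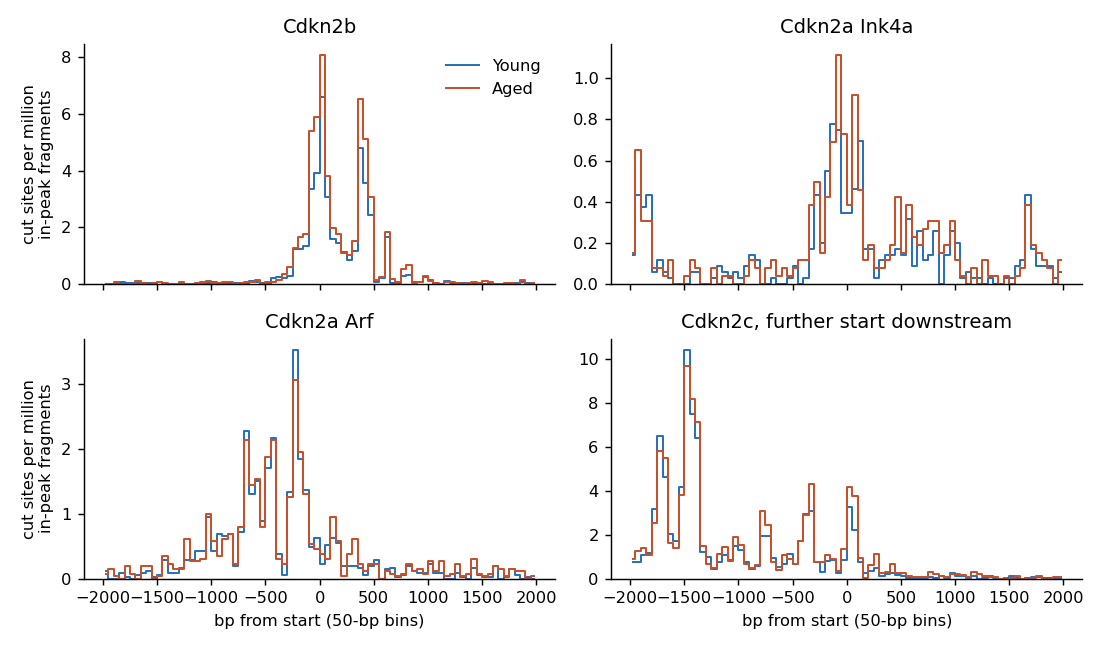
Cut sites, scaled to 1000000 in-peak fragments, in 50-bp bins within 2 kb of the starts of Cdkn2b, Ink4a and Arf and of a further start of Cdkn2c, in young (blue) and aged (red) HSCs, 1 library each. The vertical axes differ, and the bins of Ink4a hold few cuts, with 276 and 269 cut sites within 1 kb, and those of Cdkn2b 1466 and 1465.

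Cdkn2c, which encodes p18, showed higher values in aged HSCs downstream of its 5′ end and not at it. The 5′ end stood at 33.1 FPM (31.2 to 35.1) in young and 34.7 FPM (32.5 to 37.1) in aged HSCs, overlapping, with a log2 ratio of 0.07. A further annotated start downstream stood at 16.8 FPM (15.5 to 18.2) and 22 FPM (20.2 to 23.9), without overlap and with a log2 ratio of 0.39 (0.22 to 0.56). That start is the only one past 25% among 5 further coding starts of the 10 genes, which were added after the values had been seen. Under 3 alternatives it was no longer 25% higher, with a log2 ratio of 0.16 with 2 kb on either side, 0.19 over short fragments and 0.25 in cells of 5000 to 10000 in-peak fragments. Of the 9 peaks of the Cdkn2c locus with 100 fragments, 6 had a log2 ratio above 0, beside 48872 of all 97279 such peaks in the genome. Past 1.5-fold were 0, beside 9.63% higher and 4% lower in the genome. The median log2 ratio of the 9 was 0.30, and counts among 9 are too small to be read as more than those shares. The part of the gene more than 1 kb from its starts held only 66 young and 86 aged fragments, 1.91 and 3.29 FPM, with a log2 ratio of 0.78 (0.31 to 1.27). The sequence at the further start, chr4:109665323-109665622 on the minus strand, is shown for the contrast with the GC-rich starts above. Capitals mark CCAAT and the E-box CACGTG.
Cdkn2c further start: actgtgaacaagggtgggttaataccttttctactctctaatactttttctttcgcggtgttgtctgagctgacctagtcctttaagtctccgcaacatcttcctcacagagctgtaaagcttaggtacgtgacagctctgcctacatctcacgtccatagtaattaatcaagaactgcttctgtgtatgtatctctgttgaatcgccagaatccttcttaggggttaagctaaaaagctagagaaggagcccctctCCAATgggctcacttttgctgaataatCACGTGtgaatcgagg
Its GC content was 44%, beside 73.3% in the sequence at the other Cdkn2c start in the table, which held 4 GC boxes and neither of these matches.

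The fourth INK4 gene, Cdkn2d for p19, was the most open of the promoters and differed little between the ages. It stood at 83.3 FPM (2886 fragments, 80.3 to 86.4) in young and 80.5 FPM (2104 fragments, 77.1 to 84) in aged HSCs. The intervals overlapped and the log2 ratio was -0.05, from -0.13 to 0.03. Its level lay at percentile 98.5 of all promoters. Its sequence, chr9:21291160-21291459 on the minus strand, is shown as that of the most open start, with capitals at GGGCGG and CCAAT on either strand.
Cdkn2d: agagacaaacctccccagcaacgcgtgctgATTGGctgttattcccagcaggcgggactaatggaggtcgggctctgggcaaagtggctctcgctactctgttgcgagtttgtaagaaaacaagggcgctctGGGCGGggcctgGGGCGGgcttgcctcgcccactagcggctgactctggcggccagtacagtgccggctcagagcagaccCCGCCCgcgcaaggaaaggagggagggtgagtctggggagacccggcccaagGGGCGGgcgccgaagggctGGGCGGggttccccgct
It held 5 GC boxes and 1 CCAAT match and had a GC content of 66.3%.

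Among the Cip/Kip genes, Cdkn1b (p27) was slightly lower and Cdkn1c (p57) level. Cdkn1b stood at 50.3 FPM (47.9 to 52.7) in young and 46.2 FPM (43.7 to 48.9) in aged HSCs, with a log2 ratio of -0.12 (-0.23 to -0.01). Their own intervals overlapped while that of the ratio lay just below 0. The Cdkn1b ratio lay at percentile 26.7 of all promoters. The ratio interval lay below 0 for 24.4% of all promoters and for 2 of the 10 with the minimum (Cdkn1b and Ccnd2). The loss is therefore not read as particular to Cdkn1b. Cdkn1c stood at 28.5 FPM (26.7 to 30.3) and 28.7 FPM (26.7 to 30.8), a log2 ratio of 0.01 (-0.13 to 0.15). In cells of 5000 to 10000 in-peak fragments the Cdkn1c log2 ratio was -0.20. The annotated 5′ end of Cdkn1a (p21), a p53 target, held only 45 young and 38 aged fragments, so a difference was not detectable at this depth, with a log2 ratio of 0.17 from -0.50 to 0.82. The most open of its annotated coding starts was a further one downstream, at 19.5 FPM (18 to 21) in young and 23.3 FPM (21.5 to 25.2) in aged HSCs. There the intervals did not overlap, and the log2 ratio of 0.26 (0.10 to 0.42) was below a gain of 25%. With 2 kb on either side of that start the log2 ratio was 0.03. The third start of Cdkn1a stood at 3.18 and 3.02 FPM with a log2 ratio of -0.07.

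At their starts no kinase or cyclin gene passed the fold set for promoters, though Ccnd2 was lower at both of its starts. Cdk6 stood at 24.2 FPM (22.6 to 25.9) in young and 25.8 FPM (23.9 to 27.8) in aged HSCs at its 5′ end, with a log2 ratio of 0.09 (-0.06 to 0.24), and at 42.3 and 42 FPM at a more open start downstream, with a log2 ratio of -0.01. Ccnd1, for cyclin D1, stood at 20.6 FPM (19.1 to 22.1) and 21.1 FPM (19.4 to 22.9), a log2 ratio of 0.04 (-0.13 to 0.20). Ccnd2, for cyclin D2, had the lowest ratio of the 11. It stood at 76.9 FPM (74 to 79.9) and 69.6 FPM (66.4 to 72.9), without overlap, with a log2 ratio of -0.14 (-0.23 to -0.06), and at 61.9 and 53.4 FPM at a further start whose window overlaps the first, with a log2 ratio of -0.21 (-0.31 to -0.12). Neither was 20% lower. The ratio at the 5′ end lay at percentile 19.7 of all promoters and that at the further start at percentile 7.55. With 500 bp and with 2 kb on either side of the further start, its log2 ratio was -0.10 and -0.11. A Ccnd2 peak 377 bp downstream of the 5′ end lay inside the main windows of both starts. It stood at 26.5 FPM in young and 19.7 FPM in aged HSCs, a ratio of 0.742 (0.665 to 0.827). Another, 8877 bp downstream, stood at 11.1 and 8.18 FPM, a ratio of 0.736 (0.619 to 0.87). Both losses passed 20% but not the fold set for peaks, and both were picked by value. Of the 12 Ccnd2 peaks with the minimum of fragments, 4 had a log2 ratio above 0, at most 0.06.

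**Figure D4:**
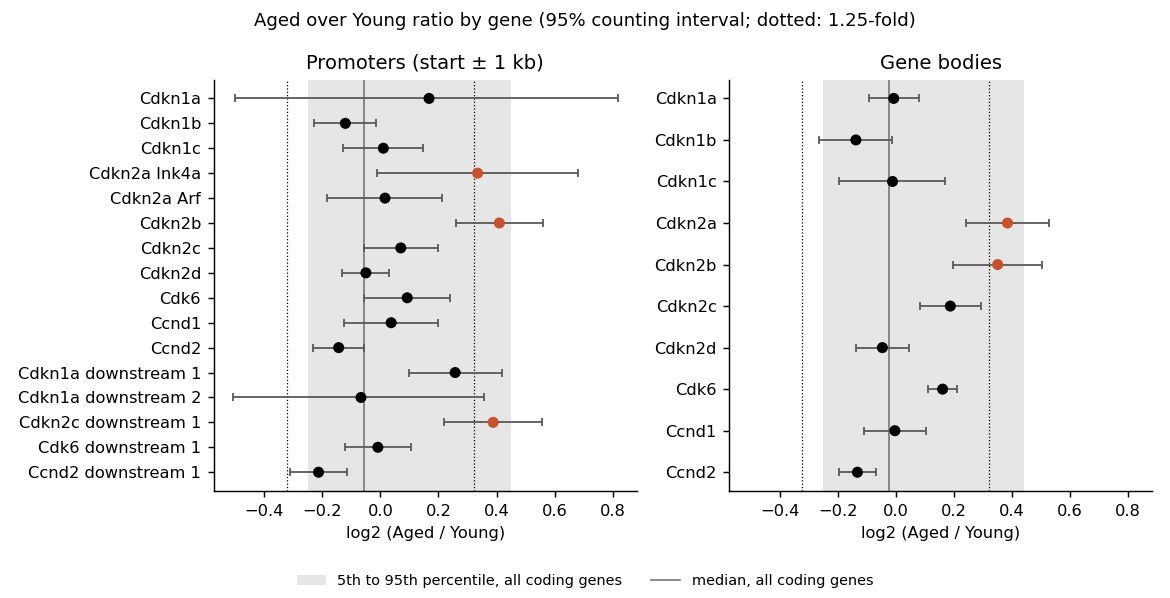
Log2 ratio of aged over young HSCs at the 11 promoters and 5 further coding starts (left) and over the 10 gene bodies (right), with 95% counting intervals. Red points are at least 25% higher (dotted lines at 25% higher and 20% lower), namely Cdkn2b, Ink4a and the further Cdkn2c start among promoters and Cdkn2a and Cdkn2b among bodies. The grey band and line give the 5th to 95th percentile and the median of all coding genes.

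Other genes of the same pathway, a list of 22 with the kinases Cdk2 and Cdk4, cyclins D3 and E, the retinoblastoma genes, the E2F and Tfdp genes and their regulators, were compared in the same way. Of these, 21 held 100 fragments, and 0 of the 21 were at least 25% higher or 20% lower, beside the 8.35% and 2.6% of all promoters. The fewest fragments among the 21 were at E2f2, with 452 young and 341 aged, while the 15003 promoters begin at 100 over both libraries. The counting error of the 2 sets is therefore unlike, and their shares were not matched for it. The median log2 ratio of the 22, which include a gene below the minimum, was -0.09, beside -0.05 over the 15003 promoters with the minimum. Among the 21, 1 had a log2 ratio above 0, beside 34.7% of all promoters. The gene below the minimum was Skp2, with 6 young and 8 aged fragments and a log2 ratio of 0.77 (-0.90 to 2.63). Over the 21 the log2 ratios ran from -0.25 to 0.00. The counting interval of the ratio lay below 0 for 8 of the 21, beside 24.4% of all promoters, and above 0 for 0, beside 12.3%. The 8 were Cdk4, Ccnd3, Ccne2, Rbl1, E2f1, E2f3, E2f8 and Cks1b, a count too small to be read as more than that share. Ccnd3, the remaining D-type cyclin, stood at 16.5 and 14.4 FPM with a log2 ratio of -0.20 (-0.39 to -0.01). These 8 genes were chosen to be named after their values were seen.

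In single cells most of these promoters were seen in few cells at a time. With each cell thinned to 3000 in-peak fragments, with 4787 young cells and 3271 aged ones deep enough, a fragment at any of the 11 promoters was found in 65.6% of young (64.2 to 66.9, exact binomial) and 65.8% of aged cells (64.1 to 67.4). For Cdkn2b the share was 5.89% (5.24 to 6.6) in young and 8.25% (7.33 to 9.25) in aged cells, without overlap. For Ink4a it was 1.3% (0.994 to 1.66) and 1.68% (1.27 to 2.18), and for Arf 4.26% (3.71 to 4.87) and 3.91% (3.27 to 4.64). The intervals of both Cdkn2a starts overlapped. The share for Cdkn2d was 22.4% and 20.8%, and for Cdkn1b 13.7% and 12.4%. Without thinning the Cdkn2b share was 13.6% and 18.4%. Windows of 2 kb outside peaks and genes had a fragment in a median of 0.0418% of thinned young and 0.0306% of thinned aged cells, with a 95th percentile of 0.209% and 0.214%, and the 5′ end of Cdkn1a stood at 0.334% (0.191 to 0.542) and 0.397% (0.212 to 0.679). Its intervals included those 95th percentiles in thinned cells and lay above them without thinning, at 0.859% (0.62 to 1.16) beside 0.491% in young and 1.09% (0.766 to 1.5) beside 0.529% in aged cells.

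Over gene bodies, which share their first kb with the promoters, as many were past 25% as among the promoters, but not all gains matched the 5′ ends. The Cdkn2a body begins at the Arf start, whose promoter had a log2 ratio of 0.02. The bodies of Cdkn2c and Cdk6 had ratio intervals above 0, while those of their 5′ ends included 0. Of the 10 bodies, all had 100 fragments, 2 were at least 25% higher in aged HSCs and 0 at least 20% lower, beside 8.29% and 2.59% of 17668 coding gene bodies. Cdkn2a went from 23.4 FPM (809 fragments) in young to 30.5 FPM (797 fragments) in aged HSCs, a ratio of 1.31 (log2 0.38, from 0.24 to 0.53). Cdkn2b went from 20.7 to 26.4 FPM, a ratio of 1.28 (log2 0.35, from 0.20 to 0.50). Over short fragments the log2 ratio of the Cdkn2a body was 0.258, below a gain of 25%. Scaled to all unique fragments that of the Cdkn2b body was 0.318, also below it. Cdkn2c at 45.6 and 51.9 FPM and Cdk6 at 197 and 221 FPM had log2 ratios of 0.19 (0.08 to 0.29) and 0.16 (0.11 to 0.21). Ccnd2 at 138 and 126 FPM and Cdkn1b at 36.8 and 33.5 FPM had log2 ratios of -0.13 and -0.14, with intervals below 0. Cdkn1a, Cdkn1c, Cdkn2d and Ccnd1 lay between -0.05 and 0.00, with intervals that included 0. The median over the 10 bodies was -0.01, beside -0.02 over all bodies. With 1 kb around each annotated start left out, Cdkn2a kept a log2 ratio of 0.41 and Cdkn2b, left with 131 and 117 fragments, had 0.24 (-0.13 to 0.61). In the same setting Cdkn1b, left with 312 young and 185 aged fragments (9.01 and 7.07 FPM), was more than 20% lower. Its ratio was 0.787 (0.651 to 0.945), at percentile 5.06 of all genes. An exon peak 2.56 kb downstream of the Cdkn1b 5′ end, given below as a loss, lies in this body with 164 young and 77 aged fragments. The 2 losses are therefore not separate. Cdkn2c was higher as given above. Of 15664 such bodies 12.1% were at least 25% higher and 5.96% at least 20% lower.

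The longest of the genes, Cdk6, has a body of 190 kb with peaks that differed in both directions. Of 21 peaks with 100 fragments in and around it, 3 were at least 1.5-fold higher in aged HSCs and 2 at least 1.5-fold lower, all 5 in introns, beside 9.63% and 4% of all peaks in the genome. Counts of 3 and 2 are too small to be read as more than those shares. The largest ratio was at a peak 153 kb downstream of the 5′ end, at 4.45 FPM (154 fragments) in young and 8.76 FPM (229 fragments) in aged HSCs, a ratio of 1.97 (1.6 to 2.43). The other peaks higher in aged HSCs lay 160 kb downstream, at 2.8 and 4.89 FPM, a ratio of 1.74 (1.33 to 2.3), and 500 bp beyond it, at 1.93 and 3.14 FPM, a ratio of 1.62 (1.16 to 2.27). The nearest coding start to these 3 higher peaks was that of Fam133b, 49.3, 42.3 and 41.8 kb away. The start of the antisense gene Gm42435 lay 5511, 1454 and 1954 bp from them. Which gene the peaks belong to was not tested. The lower peaks lay 22.2 kb downstream, at 2.02 and 1.22 FPM, a ratio of 0.616 (0.386 to 0.933), and 120 kb downstream, at 3.23 and 1.99 FPM, a ratio of 0.621 (0.434 to 0.862). The last changed sign, to a log2 ratio of 0.06, under 1 of 12 alternatives, while the peak at 153 kb stayed between 0.78 and 1.18 and past 1.5-fold in all 12. The other peaks less often stayed past 1.5-fold with the minimum of fragments. Those at 160 and 161 kb did so in 10 and 9 of the 12, and those at 22.2 and 120 kb in 7 and 8. At 161 kb the lowest log2 ratio was 0.65, so without the minimum that peak was past 1.5-fold in all 12. The peak with the most fragments in the locus was at the downstream start, at 38.6 and 38 FPM.

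The middle 300 bases of the peak 153 kb into Cdk6, chr5:3494411-3494710 on the plus strand of mm10, are shown as the place of the largest ratio among the peaks with 100 fragments. Capitals mark a match to TGACTCA, the AP-1 consensus, and to TGTGGT, the RUNX core, on either strand.
Cdk6 intron peak: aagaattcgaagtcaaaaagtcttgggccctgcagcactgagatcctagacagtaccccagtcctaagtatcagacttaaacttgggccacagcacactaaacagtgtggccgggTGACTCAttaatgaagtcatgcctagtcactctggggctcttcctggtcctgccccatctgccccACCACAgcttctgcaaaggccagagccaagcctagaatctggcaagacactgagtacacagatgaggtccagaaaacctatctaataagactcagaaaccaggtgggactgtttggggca
TGACTCA was found in the middle 300 bases of 8.13% and TGTGGT in 24.6% of all 165623 peaks, shorter peaks being taken whole. Of 9 peaks of these loci chosen for their ratio, higher and lower ones together, 1 held the AP-1 consensus and 5 the RUNX core. The RUNX core was in both higher and lower peaks, and 9 peaks are too few to be read as more than those shares. The GATA form AGATAA was in 0 of these 9 and in 10.5% of all peaks. The FOX form TGTTTAC was in 0 of the 9 and in 3.22% of all peaks. The PU.1 form GAGGAAGT was in 0 of the 9, beside 7.46% of all peaks. For the ETS form CCGGAAGT the figures were 0 and 0.949%.

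**Figure D5:**
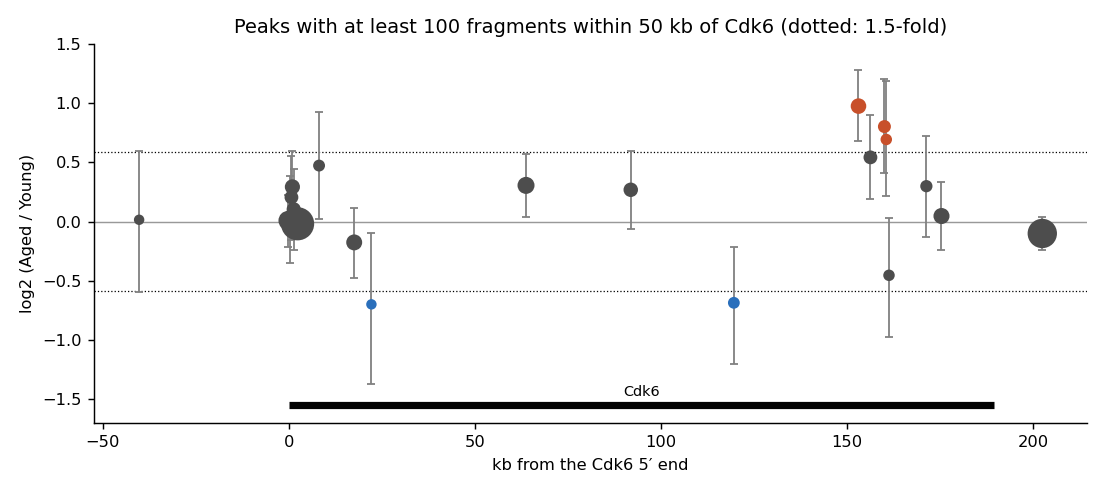
Log2 ratio of aged over young HSCs for the 21 peaks with at least 100 fragments within 50 kb of Cdk6, by distance in kb from its 5′ end, with 95% counting intervals and point area that grows with the number of fragments. The 3 red peaks (at least 1.5-fold higher) lie between 153 and 161 kb, and the 2 blue peaks (at least 1.5-fold lower) at 22.2 and 120 kb.

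Over all the loci, 151 of 221 peaks in the genes and their 50-kb flanks held 100 fragments. Of these, 5 were at least 1.5-fold higher in aged HSCs, beside 9.63% of 97279 peaks in the genome, and 7 at least 1.5-fold lower, beside 4%. Scaled to all unique fragments, 5 were higher and 10 lower, and with a pseudocount of 10 fragments 5 were higher and 1 lower. The median log2 ratio of the 151 was -0.02 beside 0.00 over all peaks. Besides 3 in Cdk6, the gains included a peak in the Cdkn2a intron, 8.82 kb downstream of the Arf start. It stood at 1.41 FPM (49 fragments) in young and 2.29 FPM (60 fragments) in aged HSCs, a ratio of 1.62 (1.09 to 2.42). This peak stayed past 1.5-fold with the minimum of fragments in 8 of 12 alternatives. The 500-bp bin over it held the same fragments. Outside Cdk6, the largest losses were at an intergenic peak 39.9 kb upstream of Cdkn1a and at a peak in an exon of Cdkn1b. The first, 2260 bp from the start of the lincRNA AC167363.1, stood at 2.57 and 1.53 FPM, a ratio of 0.604 (0.399 to 0.874). Its nearest coding start was that of Srsf3, 18.4 kb away. The second, inside the gene body counted above, stood at 4.73 and 2.94 FPM, a ratio of 0.626 (0.468 to 0.82). They stayed past 1.5-fold with the minimum of fragments in 8 and 11 of 12 alternatives. The peak with the most fragments near Cdkn1b was not its promoter but an intergenic one 8.29 kb downstream, 406 bp from the start of the lincRNA Lockd, at 56.3 FPM (53.8 to 58.9) in young and 49 FPM (46.4 to 51.8) in aged HSCs, a log2 ratio of -0.20 (-0.30 to -0.10). The peaks with the most fragments also lay away from the 5′ end near Cdkn1a, in an intron 4.5 kb downstream at 40.7 and 37.8 FPM (log2 ratio -0.11), near Cdkn2c, at the start of Faf1 at 53.8 and 51.9 FPM (log2 ratio -0.05), and near Ccnd1, at the start of LTO1 at 33.1 and 30.2 FPM (log2 ratio -0.13). At Cdkn1c, Cdkn2b, Cdkn2d and Ccnd2 they lay within 258 bp of the 5′ end.

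In the flanks, 215 of 1857 bins of 500 bp held 100 fragments. Of these, 6 were at least 1.5-fold higher in aged HSCs, beside 6.71% of 123686 such bins of all coding genes, and 3 at least 1.5-fold lower, beside 2.95%. Scaled to all unique fragments, 5 were higher and 6 lower. The largest ratio was 33.2 kb upstream of Cdkn1a, in an exon of the lincRNA gene Trp53cor1 (lincRNA-p21, a p53 target), at 1.99 FPM (69 fragments) in young and 4.02 FPM (105 fragments) in aged HSCs, a ratio of 2.01 (1.47 to 2.77). Its log2 ratio stayed between 0.84 and 1.17 over 12 alternatives, past 1.5-fold in each. The bin also met the minimum of fragments in 9 of the 12. Near Cdkn2c, a bin 102 bp from the start of the noncoding gene 9630013D21Rik went from 5.89 to 9.22 FPM, a ratio of 1.56 (1.29 to 1.9). The largest loss was an intergenic bin 31.3 kb upstream of Ccnd1, from 6.99 to 4.36 FPM, a ratio of 0.627 (0.495 to 0.783). Each of these 2 bins stayed past 1.5-fold with the minimum of fragments in 10 of 12 alternatives.

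Of the 20 whole flanks of the 10 genes, 1 was at least 25% higher in aged HSCs and 0 at least 20% lower, beside 10.3% and 1.08% of all upstream and 11.7% and 1.26% of all downstream flanks. It was the 50 kb downstream of Cdkn2c, at 27 FPM (934 fragments) in young and 34 FPM (888 fragments) in aged HSCs, a ratio of 1.26 (1.15 to 1.38), which lay at percentile 88.8 of 20832 coding genes. The flanks of Cdkn2a and Cdkn2b overlap each other and the bodies of both genes and had ratios between 1.09 and 1.19, with intervals above 1 except downstream of Cdkn2a. Those of the other 7 genes and the upstream flank of Cdkn2c lay between 0.912 and 1.02. The lowest was upstream of Cdkn1b, at 121 and 110 FPM. The median log2 ratios over all genes were -0.03 upstream and -0.02 downstream.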

How the data were processed

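Single-cell ATAC-seq of 2 libraries of sorted mouse HSCs, 1 of each age, was analysed, with groups taken from the sample labels. Cell Ranger ATAC had been used by the authors for alignment (mm10), removal of duplicates and calling of cells. The deposited lists of unique fragments and tables of barcodes hold counts made by the authors, with no normalization. Of 53786133 young and 48333115 aged fragments listed, those of kept cells were used (50069575 and 38659257), which limits intervals to counting error.

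Peaks were rebuilt from the cut sites of the kept cells (Poisson, windows of 151 bp, q under 0.001) and merged over the libraries, giving 165623 peaks over 66.4 Mb, which held 69.2% of young and 67.6% of aged fragments. The authors' peak positions were not used here. A fragment counted once in a region when an end lay in it. Log2 ratios have a pseudocount of 1 fragment. A promoter or body counted as higher at a gain of 25% or as lower at a loss of 20% (the same fold), and a bin or peak at 1.5-fold, with at least 100 fragments over both libraries. Percentiles are among features with that minimum, except those of promoter levels, which are among all coding genes. Fragment levels have exact Poisson intervals, ratios that of the binomial share, and shares of cells exact binomial ones, all at 95%. Background windows for the shares were 20000 windows of 2 kb with at least 1 fragment, outside peaks and genes. Cells marked as doublets by loci with at least 3 fragments (204 young, 249 aged) were kept, and cells were not clustered. The counting was tested on simulated data. All 10 genes are named, with the 5 largest ratios of each direction among bins and among peaks past 1.5-fold, the peak with the most fragments in each locus, and any pathway gene past the fold for promoters. A region among these peaks and bins is not reported here, with its neighbours. The genes and lists were chosen with earlier results of these data known. Python 3.11.15, numpy 2.4.6, scipy 1.17.1, pandas 2.3.3 and numba 0.67.0 were used. Alternatives covered the limits on cells, doublets, scaling, thinning, fragment length, overlap, pseudocount, minimum, windows, bins and peaks. Alternatives with further starts and with 1.5-fold for promoters and bodies were chosen after seeing the data.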

Additional observations from a re-analysis of the deposited data

How the results depend on the processing

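With 1 library per age, no replicate could be left out. No paired analysis was possible because each age had 1 library, so the groups share only the replicate number 1. The main counts past the fold were 2 promoters, 2 bodies, 9 bins (6 higher, 3 lower), 12 peaks (5 higher, 7 lower) and 0 pathway promoters. Among promoters the count was 1 (Cdkn2b) over short fragments, in windows of 2 kb on either side, scaled to all unique fragments and with the flank density subtracted, 0 at 1.5-fold and 3 with further starts. Among bodies it was 1 over short fragments (Cdkn2b) and scaled to all unique fragments (Cdkn2a), 0 at 1.5-fold, and 3 with the windows around the starts left out (Cdkn2a and Cdkn2c higher, Cdkn1b lower). The bins past 1.5-fold numbered 5 in cells of 5000 to 10000 in-peak fragments (4 higher, 1 lower), 4 in thinned cells (2 and 2), 14 on a grid shifted by 250 bp (8 and 6), 737 with no minimum of fragments (370 and 367) and 11 scaled to all unique fragments (5 and 6). The peaks numbered 6 in cells of 5000 to 10000 fragments (3 and 3), 7 in thinned cells (4 and 3), 6 over short fragments (2 and 4), 6 with a pseudocount of 10 (5 and 1), 45 with no minimum (19 and 26) and 15 scaled to all unique fragments (5 and 10). The count of pathway promoters was 1 in cells of 5000 to 10000 fragments (Ccnd3, lower) and 1 with no minimum (Skp2, higher). Without a minimum the added features hold few fragments. The share of cells with a fragment at any of the 11 promoters was 88.9% of young and 88.7% of aged cells without thinning, where each cell keeps all its fragments. The cause of the other differences was not tested. Of 367 values of single promoters and bodies under the alternatives, 353 lay within the counting interval of the main value, and 0 of those past the fold changed sign. This count overstates stability, because no minimum of fragments and counting any overlap left these ratios unchanged. The full set of limits on cells and TMM scaling hardly moved them. The median over the 11 promoters ran from -0.04 to 0.09. Scaling by TMM moved all log2 ratios by -0.0024 and scaling to all unique fragments by -0.03.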
